A study of Aspergillus nidulans with 4 samples.

Results

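Genes for beta-glucan synthases and for enzymes that remodel beta-glucan were examined in the filamentous fungus Aspergillus nidulans with and without the mitogen-activated protein kinase MpkA. The set held 8 of the 10930 genes in the deposited tables. It took in fksA (AN3729), celA (AN8444) and engA (AN0472) by identifier, and the 5 genes whose annotation contains 1,3-beta-transglycosidase (AN11152, AN7657, AN0558, AN7511 and AN3730). The other term searched, glucanosyltransferase, added no further gene. The rule itself used no measured value, but it was set with earlier results of these data known. RefSeq names AN7657 gel1 and AN0558 gel2, and it gives no such name for the other 3 transglycosidase genes.

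The comparison was between strains, with 2 libraries each. Strain AN1404 carries a deletion of mpkA, and strain AN1405 is its parental strain. No other allele is named for either strain. Both were grown as mycelium in rich medium of low pH, without added stress, and harvested in late exponential phase. The submitters mention biological as well as technical replicates but do not tie either kind to a library, so p-values rest on a spread that may be only technical.

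Beta-1,3-glucan is the main fibrous polymer of the Aspergillus cell wall. A synthase in the plasma membrane, whose catalytic subunit is FksA, spins it from UDP-glucose and is switched on by the GTPase Rho1. Transglycosidases of the Gel family, called Gas in yeast, then cut a chain and join the fragment to another chain, which lengthens the glucan and makes branch points. MpkA acts at the end of the kinase cascade for cell wall integrity, and its yeast counterpart, Slt2, is known for turning on wall genes through the factor Rlm1. Wall glucan can also be broken down by glucanases such as EngA, which is known from autolysing mycelium.

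The libraries held 31674270 and 31609185 reads on genes in the deletion strain, and 34871842 and 33027324 in the parental strain. The deleted gene mpkA had 6 and 3 reads without mpkA and 6993 and 6437 in the parental strain, which fits the strain labels. Values below are reads divided by the authors' size factor of each library (normalised reads), whose mean over both libraries is the value in the authors' deposited table. The libraries of a strain carry no replicate number and are called a and b. The 7 genes taken as markers of conidia and conidiophores were all detected, with summed levels of 835 and 790 normalised reads in the deletion strain and 1858 and 1734 in the parental strain. Of these markers, 4 were lower, 1 was higher and 2 were not called in the authors' deposited table, against 35.9% of all genes tested lower and 36.3% higher. The largest difference among the markers was in abaA (AN0422), a regulator of conidiation. It had 127 and 125 normalised reads in the deletion strain and 1153 and 1120 in the parental strain. Without abaA, left out after seeing the data, the sums were 708 and 664 in the deletion strain and 705 and 614 in the parental strain. The higher marker was yA (AN6635), for a laccase of conidial pigment. It had 429 and 408 normalised reads in the deletion strain and 104 and 93.2 in the parental strain. In the sums without abaA, this rise offset lower values of other markers. The hydrophobin gene rodA (AN8803) had 28.9 and 31.3 normalised reads in the deletion strain and 160 and 136 in the parental strain. The pigment gene wA (AN8209) had 158 and 138 in the deletion strain and 305 and 280 in the parental strain. The regulator gene brlA, which starts conidiophore formation, had only 31 and 22 reads in the deletion strain and 94 and 64 in the parental strain. The part of such cells in the results below was not tested, and fewer cells of a type cannot be told apart from less RNA per cell in bulk mycelium.

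The 8 genes did not all move in one direction in the deletion strain. Both synthase genes rose, 4 of the 5 transglycosidase genes fell, the transglycosidase gene beside fksA rose, and engA fell a little. The largest fall was 2.95-fold, for AN11152, and the largest rise was 2.15-fold, for celA. All 8 were called in the authors' deposited comparison at a q-value under 0.05, 3 of them as higher and 5 as lower in the deletion strain. Of all 10505 genes tested in it, 72.2% were called, 36.3% higher and 35.9% lower, so being called did not set these genes apart. The median log2 change was -0.24 over the 8 genes and -0.01 over all genes tested. A change of at least 2-fold was seen in 3 of the 8 genes, 2 lower and 1 higher, against 27.2% of all genes tested, 18.1% lower and 9.12% higher. At 1.5-fold, 5 of the 8 genes passed, against 44.0% of all genes tested, and at a q-value under 0.01 all 8 did, against 67.0%. In all 8 genes the libraries of the strains did not overlap, as in 87.7% of the genes tested. On recovered reads edgeR called all 8 with TMM scaling (86.5% of the genes it tested), with DESeq2 size factors (86.6%), with library totals (86.3%) and without a filter (77.7%), and so did DESeq2 (73.0%).

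**Figure D1:**
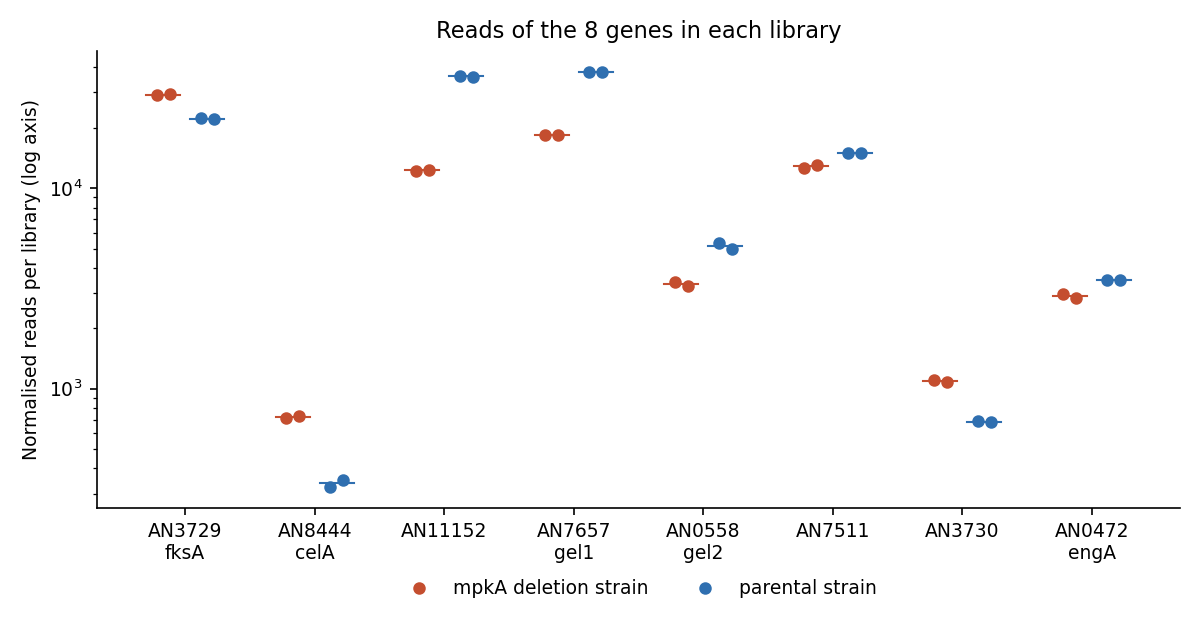
Normalised reads of the 8 genes in each library on a log axis, with deletion libraries left and parental libraries right of each gene name; points are libraries and short lines are strain means. AN11152 sits near 12254 in the deletion strain and 36132 in the parental strain, and in none of the 8 genes do the libraries of the strains overlap.

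The synthase gene fksA (AN3729, positions 3255211 to 3262061 plus strand; the tables give no chromosome) is annotated as a 1,3-beta-glucan synthase. It had 29200 and 29369 normalised reads in deletion libraries a and b, against 22391 and 22048 in parental libraries a and b. Both deletion libraries stood above both parental ones. In the authors' deposited table the mean rose 1.32-fold, a log2 change of 0.40 (q = 2.11e-33). On reads recovered per library, edgeR's quasi-likelihood test with Benjamini-Hochberg adjustment gave a log2 change of 0.38 with a standard error (SE) of 0.03 (adjusted p = 4.37e-10). The gene took 0.083% of all gene reads in the deletion strain and 0.0731% in the parental strain. Scaled by library totals in place of size factors, its log2 change was 0.18, while the median of all genes in edgeR moved to -0.21 from -0.02.

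The second synthase gene, celA (AN8444, positions 500283 to 502593, minus strand), is annotated by its similarity to cellulose synthase. Its product is known in Aspergillus for mixed-linkage beta-glucan, which has 1,3 and 1,4 bonds in a chain. It had 718 and 734 normalised reads in deletion libraries a and b, against 324 and 351 in parental libraries a and b. Both deletion libraries stood well above either parental library. The mean rose 2.15-fold in the authors' deposited table (q = 1.21e-27), a larger rise than that of fksA, and 10.4% of all genes tested rose further. edgeR gave a log2 change of 1.09 (SE 0.07). The rise rested on far fewer reads than that of fksA, with 646 and 656 in the deletion libraries against 372 and 381 in the parental libraries.

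Among the transglycosidase genes, AN11152 (positions 348174 to 350191, minus strand) fell most. It had 12159 and 12350 normalised reads in deletion libraries a and b, against 36297 and 35967 in parental libraries a and b. Every deletion value was far below every parental value. The 2.95-fold fall in the authors' deposited table had a q-value listed as 0, too small for the table, and 15.0% of all genes tested fell further. edgeR gave a log2 change of -1.58 (SE 0.03), which became -1.77 under library totals.

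The gene gel1 (AN7657, positions 2286374 to 2288477, plus strand) shares its name with the Gel1 transglycosidase of Aspergillus fumigatus, an enzyme anchored to the membrane by a glycolipid. It had 18487 and 18482 normalised reads in deletion libraries a and b, against 37855 and 38166 in parental libraries a and b. The deletion libraries were close to each other, and both were below the parental libraries by about the same factor. The mean fell 2.06-fold in the authors' deposited table (q = 2.23e-218), with a log2 change of -1.06 (SE 0.03) in edgeR.

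The gene gel2 (AN0558, positions 3174529 to 3176545, plus strand) fell less. It shares its name with Gel2 of A. fumigatus, a transglycosidase of the same family. It had 3404 and 3249 normalised reads in deletion libraries a and b, against 5346 and 4962 in parental libraries a and b, which do not overlap. The mean fell 1.55-fold in the authors' deposited table (q = 1.87e-18), and edgeR gave a log2 change of -0.65 (SE 0.04). Its parental libraries lay 0.11 apart on the log2 scale, the second widest gap between libraries of a strain among the 8 genes after 0.12 for celA.

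AN7511 (positions 1779181 to 1781222, plus strand) changed least of the 8. It had 12655 and 13005 normalised reads in deletion libraries a and b, against 15015 and 15003 in parental libraries a and b. Both deletion values lay below the parental ones, by a small margin. In the authors' deposited table the mean was 1.17-fold lower (q = 2.32e-10), and 42.2% of all genes tested fell further. Its log2 change was -0.24 (SE 0.03) in edgeR and -0.44 under library totals.

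AN3730 (positions 3249001 to 3252093, minus strand) was the transglycosidase gene that went the other way. It had 1106 and 1084 normalised reads in deletion libraries a and b, against 689 and 684 in parental libraries a and b. Both deletion values were above both parental values. The mean rose 1.60-fold in the authors' deposited table (q = 3.55e-17), with a log2 change of 0.66 (SE 0.05) in edgeR and 0.46 under library totals.

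Among the genes matched to RefSeq, AN3730 lies directly next to fksA on one side. The 2 genes are read away from each other, with 3117 bases between them in the files, and both were higher in the deletion strain. On the other side of fksA, 32 bases away, lies AN3728, for serine palmitoyltransferase, the enzyme that starts sphingolipid synthesis. AN3728 had 5457 normalised reads in the deletion strain and 5841 in the parental strain, a log2 change of -0.10 in the authors' deposited table (q = 0.0244). Beyond AN3730 the next gene, AN3731, fell to 1243 normalised reads in the deletion strain, against 1837 in the parental strain (q = 1.24e-18 in the authors' deposited table). celA and engA had no gene of the set as a direct neighbour.

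**Figure D2:**
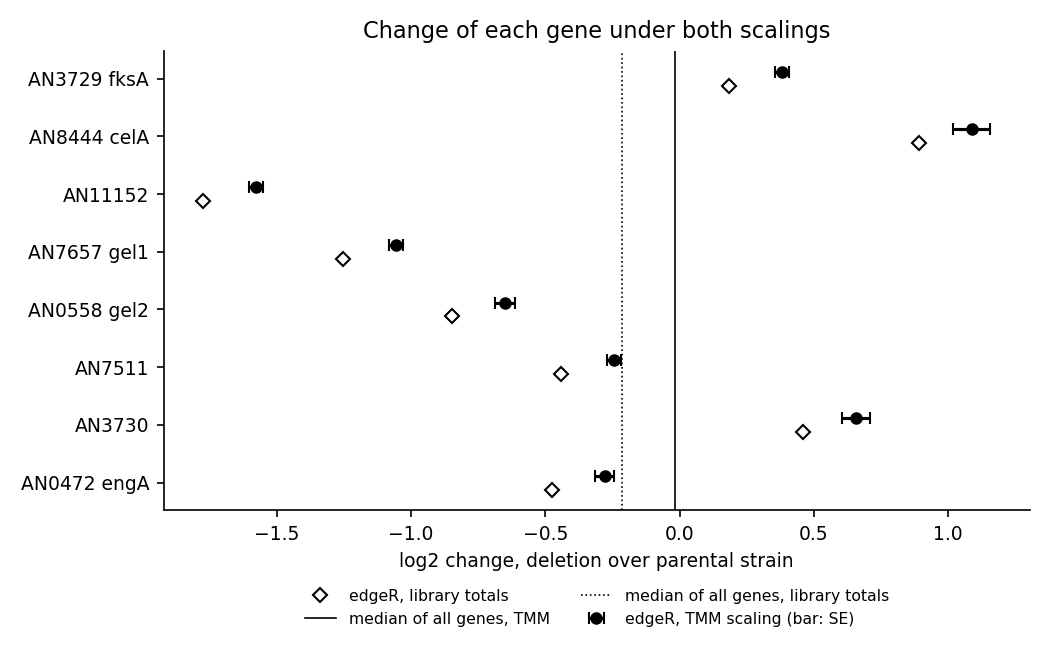
log2 change of each gene in edgeR, deletion over parental strain; filled points are with TMM scaling (bars are the SE) and open diamonds with library totals, and vertical lines are the medians of all genes under each scaling. fksA, celA and AN3730 lie right of both medians and the other 5 genes left of the median of their own scaling; library totals move fksA to 0.18 from 0.38.

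Summed over the 5 transglycosidase genes, the deletion libraries held 47811 and 48170 normalised reads and the parental libraries 95202 and 94782. The sum averaged 47990 ± 254 in the deletion strain and 94992 ± 297 in the parental strain (SD, n = 2 each), a 1.98-fold difference. With library totals in place of size factors the sum differed 2.30-fold. A permutation test on 2 libraries against 2 cannot give a p below 0.333, so no p is given for the sum. The genes AN11152 and gel1 accounted for 50.8% and 41.5% of the drop in the sum.

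The make-up of the transglycosidase reads also differed between the strains. AN11152 and gel1 together made up 64.1% ± 0.06 of the sum in the deletion strain and 78.1% ± 0.23 in the parental strain (SD, n = 2 each). AN7511 made up 26.7% ± 0.38 of it in the deletion strain and 15.8% ± 0.04 in the parental strain (SD, n = 2 each). AN3730 made up 2.28% ± 0.05 in the deletion strain and 0.722% ± 0.0014 in the parental strain. These shares are ratios within a library and do not depend on the scaling between libraries.

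**Figure D3:**
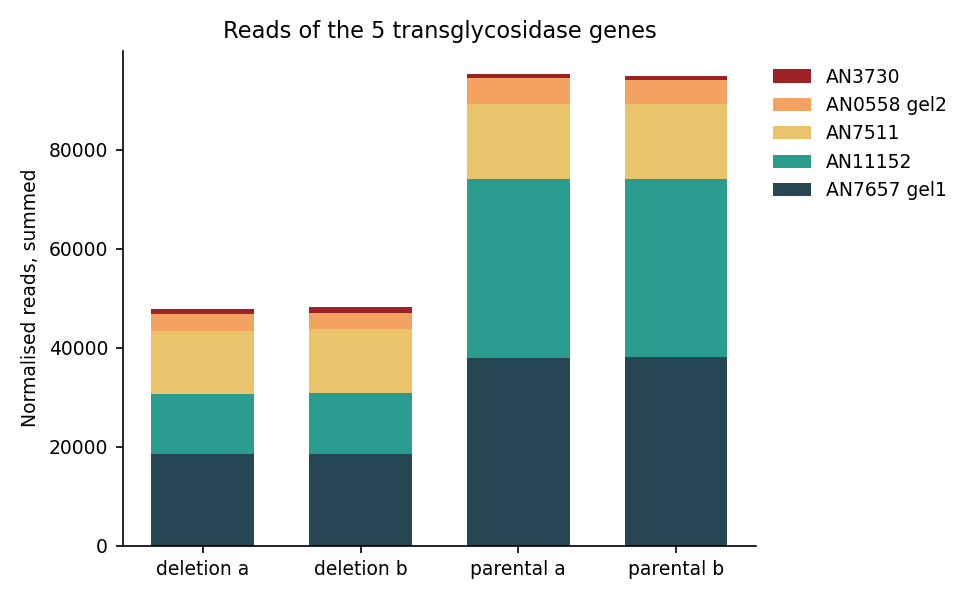
Normalised reads of the 5 transglycosidase genes stacked for each of the 4 libraries, with the axis starting at 0. The deletion libraries reach 47811 and 48170 and the parental libraries 95202 and 94782, and the segments of gel1 and AN11152 are the ones that differ most in height.

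Levels of different genes were compared as normalised reads per kilobase of gene span, introns included. In the deletion strain the order from high to low was gel1 (8785), AN7511 (6283), AN11152 (6073), fksA (4275), gel2 (1649), engA (862), AN3730 (354) and celA (314). In the parental strain it was gel1 (18066), AN11152 (17905), AN7511 (7350), fksA (3243), gel2 (2555), engA (1032), AN3730 (222) and celA (146). The orders differ only in the places of AN11152 and AN7511. The closest neighbours were gel1 and AN11152 in the parental strain, with 17992 and 18140 for gel1 against 17987 and 17823 for AN11152. Their means differed by about the spread between libraries, so those 2 levels are not told apart on gene spans. With the gene lengths of RefSeq they were 20425 for gel1 and 17905 for AN11152, further apart than their libraries. AN7511 and AN11152 were also close in the deletion strain, at 6197 and 6369 against 6025 and 6120. All other neighbours in either order were further apart than their libraries.

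Among all 10930 genes, gel1 ranked 374 by reads per kilobase in the deletion strain and 162 in the parental strain. AN11152 ranked 540 in the deletion strain and 164 in the parental strain, and fksA ranked 821 in the deletion strain and 1010 in the parental strain. At the low end, celA ranked 5750 in the deletion strain and 7151 in the parental strain. The level of fksA was also set against the summed level per kilobase of the 5 transglycosidase genes of the set. The ratio was 0.185 ± 0.0003 in the deletion strain and 0.0704 ± 0.0005 in the parental strain (SD, n = 2 each). It was 2.63 times as high in the deletion strain. Since this ratio is taken within a library, it is the same under any scaling. Genes annotated in other words are not in this sum. An example is AN0933, with 6809 per kilobase in the deletion strain and 28248 in the parental strain.

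**Figure D4:**
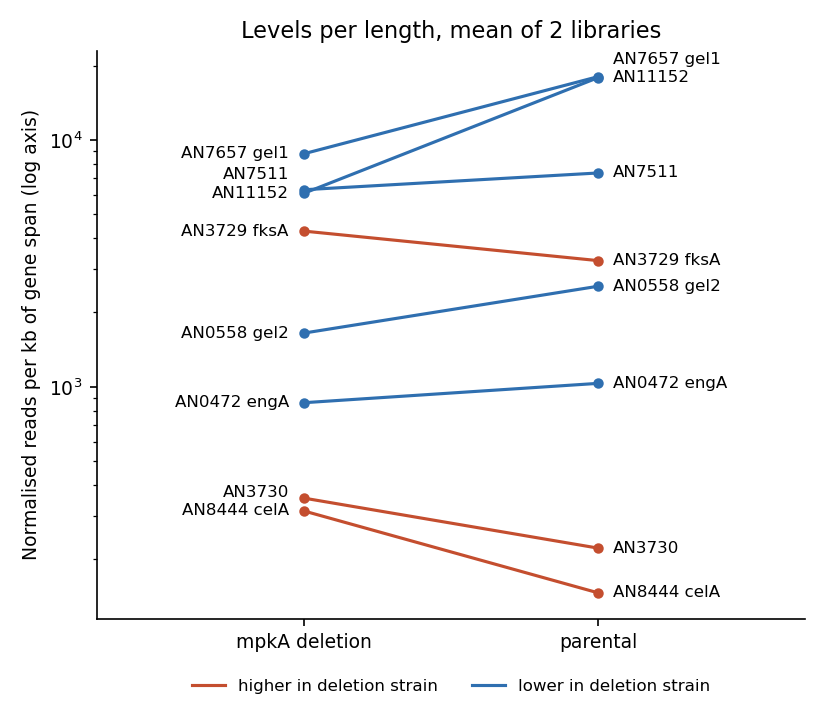
Mean normalised reads per kilobase of gene span (log axis) in the deletion strain, left, and the parental strain, right, with a line for each gene; red lines are genes higher and blue lines genes lower in the deletion strain. AN11152 stands beside gel1 at 17905 in the parental strain and below AN7511 at 6073 in the deletion strain.

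The glucanase gene engA (AN0472, positions 3449718 to 3453088, plus strand) is annotated with a role in wall breakdown during autolysis on carbon starvation. It had 2972 and 2836 normalised reads in deletion libraries a and b, against 3478 and 3483 in parental libraries a and b. Both deletion values were below both parental values. In the authors' deposited table the mean was 1.20-fold lower (q = 1.67e-07), and edgeR gave a log2 change of -0.28 (SE 0.03). Of the other genes listed as markers of ageing or autolysing hyphae, 3 are given here. chiB (AN4871), for a chitinase released in autolysis, was higher in the deletion strain, with 11872 normalised reads in the deletion strain and 3570 in the parental strain. The protease genes prtA (AN5558) and pepJ (AN7962) were lower. prtA had 297 normalised reads in the deletion strain and 981 in the parental strain. pepJ rested on 5 and 3 reads in the deletion strain, against 68 and 56 in the parental strain. The part of such hyphae in the results was not tested.

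Other genes of the pathway were taken from lists made by annotation words and identifiers. The beta-glucan list, made by terms for beta-1,3- and beta-1,6-glucan, held 8 genes beyond the set, with 2 higher, 4 lower and 2 not called. Its 6 called genes of 8 were near the 72.2% called over all genes tested. The higher genes were AN8846 and AN4536. AN8846, also annotated as a 1,3-beta-glucan synthase but with a span of only 2241 bp against 6851 bp for fksA, had 4952 normalised reads in the deletion strain and 3742 in the parental strain. Its rise of 1.32-fold in the authors' deposited table (q = 2.52e-19) was of the same size as that of fksA. AN4536, for a kinase whose orthologs regulate beta-1,6-glucan synthesis, had 2525 normalised reads in the deletion strain and 2233 in the parental strain, with a log2 change of 0.18 that turned to -0.04 under library totals.

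On the lower side of the same list, the predicted glucanase gene AN0245 fell 3.01-fold in the authors' deposited table (q = 2.62e-46), to 235 normalised reads in the deletion strain, against 708 in the parental strain. AN5818, with a predicted role in beta-1,6-glucan synthesis, fell 1.89-fold in the authors' deposited table (q = 5.14e-06), to 92.0 normalised reads in the deletion strain, against 174 in the parental strain. The transglycosidase gene AN10779, annotated as required for beta-1,6-glucan, was not called, with 120 normalised reads in the deletion strain and 146 in the parental strain (q = 0.203 in the authors' deposited table). The median log2 change of the list was -0.92, against -0.01 over all genes tested. It was -0.93 over the 7 genes that edgeR tested with TMM scaling. This median rests partly on genes with few reads. AN1332, AN3883 and AN8947 had 25.1, 19.5 and 1.67 normalised reads in the deletion strain and 47.8, 53.5 and 6.25 in the parental strain.

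The beta-1,3-glucanase list of 10 genes, 2 of them also in the beta-glucan list, was mixed, with 3 higher, 4 lower and 3 not called, again near the 72.2% called over all genes tested. By far the most abundant was AN7950, a predicted glucan endo-1,3-beta-D-glucosidase, with 18905 normalised reads in the deletion strain and 17061 in the parental strain. Its log2 change was 0.15 in the authors' deposited table (q = 2.08e-05) and -0.07 under library totals. AN4825, a predicted glucan 1,3-beta-glucosidase, rose 2.68-fold in the authors' deposited table (q = 1.27e-07), to 110 normalised reads in the deletion strain, against 41.0 in the parental strain. The predicted glucosidase genes AN4052, AN4852 and AN0779 fell 1.54-fold, 1.50-fold and 1.37-fold in the authors' deposited table. Their levels were 311, 170 and 1455 normalised reads in the deletion strain and 478, 255 and 1994 in the parental strain. The median log2 change of the list was -0.35, and -0.17 over the 8 genes that edgeR tested with TMM scaling. This median also rests partly on genes with few reads, AN1332 and AN8947 among them. AN0550, AN7869 and AN8480 had 15.6, 27.3 and 1.12 normalised reads in the deletion strain and 2.25, 17.1 and 1.33 in the parental strain. AN0550 was called higher, on 16 and 12 reads in the deletion strain against 2 and 3 in the parental strain.

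Of the 6 genes listed for regulation of the synthase, 2 were higher, 3 lower including the deleted gene mpkA itself, and 1 was not called, beside 36.3% higher and 35.9% lower over all genes tested. The GTPase gene rhoA (AN5740), for the activating subunit of the synthase, had 31183 normalised reads in the deletion strain and 25976 in the parental strain. Its rise of 1.20-fold in the authors' deposited table (q = 1.34e-15) shrank to a log2 change of 0.05 under library totals. The wall sensor genes wscB (AN4674) and wscA (AN5660) moved in opposite directions. wscB had 6606 normalised reads in the deletion strain and 3806 in the parental strain, and wscA had 6800 in the deletion strain and 11596 in the parental strain. The protein kinase C gene pkcA (AN0106) had 7889 normalised reads in the deletion strain and 8498 in the parental strain (authors' deposited table, q = 0.0076). The factor gene rlmA (AN2984), for the counterpart of yeast Rlm1, had 3180 normalised reads in the deletion strain and 3310 in the parental strain and was not called (q = 0.276 in the authors' deposited table).

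**Figure D5:**
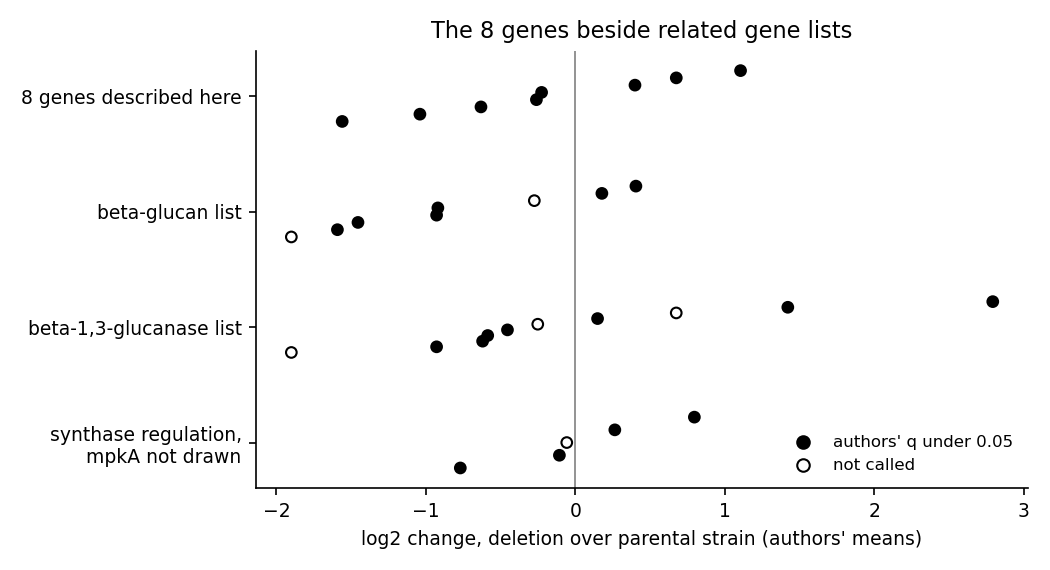
log2 change from the authors' means, deletion over parental strain, for the 8 genes and the related lists; each point is a gene, filled where the authors' q-value was under 0.05, and mpkA is not drawn. The 8 genes run from -1.56 for AN11152 to 1.10 for celA, and each of the other lists has called genes on both sides of 0.

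How firm a call is depends on the spread assumed between cultures. For the 8 genes, libraries of a strain lay 0.00039 to 0.12 apart on the log2 scale. With a coefficient of variation between libraries set to 0.1 in edgeR, 6 of the 8 were called, and 68.5% of all genes tested. AN7511 (adjusted p = 0.123) and engA (adjusted p = 0.0799) were not called by edgeR at that setting. With the coefficient set to 0.2, edgeR called 3 of the 8, AN11152 (adjusted p = 7.02e-07), gel1 (adjusted p = 0.00113) and celA (adjusted p = 0.00109), and 43.9% of all genes tested.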

How the data were processed

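Bowtie2, HTSeq and DESeq are named in the submitters' processing notes, without versions. The options and genome build were not given in the sources used here. A kit named in the labels' protocols (TruSeq RNA, version 2) does not mark strand. Each signal value deposited by the authors is a mean, over the libraries of a strain, of a gene's reads scaled by library size factors. The deposited ratio (fold change) has the parental strain on top and was turned here. The deposited p-values and q-values are the authors'. The tables give positions in bp without chromosome names. Another 2 columns hold values of no sample in this series and were left out.

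Whole reads per library were solved from each strain's mean in 2 tables with different size factors. They came out whole, within 0.25 reads, for 100% of the 10930 genes in each strain. The largest deviations were 0.101 reads in the deletion strain and 0.155 in the parental strain. Recovery and the count test were also tested on simulated data.

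The calls are those of the authors' comparison (q under 0.05). Alternatives on the recovered reads were edgeR 4.0.16 (R 4.3.3; quasi-likelihood test, TMM, filterByExpr, Benjamini-Hochberg adjustment; 8 of 8 genes passed the filter), DESeq2 size factors, library totals, no filter, DESeq2 1.42.0 and leaving out each library. A coefficient of variation of 0.1 or 0.2 (likelihood-ratio test) and RefSeq gene lengths were added after seeing the data. The SE was obtained from the log2 change and its F statistic (change over square root of F). No list was tested as a set. From the pathway lists, the text names the 3 largest rises and falls among called genes with at least 100 normalised reads in a strain. All regulators are named too. AN10779, AN1332, AN3883, AN8947, AN0550, AN7869, AN8480, AN3728, AN3731, abaA, yA, rodA and wA were named after their values were seen. RefSeq (ASM1142v1) gave gene names and neighbours for 9971 genes. Members and lists were chosen with earlier results of these data known. One gene of the list of ageing markers is not reported here.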

Additional observations from a re-analysis of the deposited data

How the results depend on the processing

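All 8 genes kept their direction under every alternative run, and all calls held under both other scalings, without a filter, with DESeq2 and without any 1 library. With an assumed coefficient of variation of 0.1, 3 genes were lower in place of 5, engA (log2 -0.28) and AN7511 (-0.24) no longer called. At 0.2, 1 was higher and 2 lower, and gel2 (-0.65), fksA (0.38), AN3730 (0.66), AN7511 (-0.24) and engA (-0.28) were not called. At least 1.5-fold, 2 were higher in place of 3 and 3 lower in place of 5, beside 44.0% of all genes tested in either direction. The genes below that fold were fksA (1.32-fold), engA and AN7511. Found by annotation text only, 1 of 5 was higher and 4 lower. Of the beta-glucan list, 1 was higher under library totals, 1 at a coefficient of 0.1, 0 at 0.2 and 0 at 1.5-fold, in place of 2. The beta-1,3-glucanase list had 1 lower at 0.2, in place of 4. Of the regulation list, 1 was higher under library totals, at 0.1, at 0.2 and at 1.5-fold, in place of 2. The summed transglycosidase reads moved to a log2 change of -1.20 under library totals, from -0.99. The median of all genes in edgeR moved too, to -0.21 under library totals from -0.02 with TMM scaling. Why the scalings differ was not tested. RefSeq gene lengths left the order of levels unchanged, and coding lengths were not run. No paired analysis was possible because the deposited columns carry no replicate numbers. With 2 libraries a strain, the spread between cultures is not known.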

Other observations

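Further genes are annotated for glucan transfer in words that the terms above miss. They were found after seeing the data: 5 genes listed as transglycosidases with a predicted role in glucan processing, and 2 listed as 1,3-beta-transglucosylases. Of these 7 genes, 6 were lower, 0 higher and 1 not called in the authors' deposited table, where 35.9% of all genes tested were lower. In edgeR with TMM scaling 7 were lower, beside 4109 of all 9338 genes it tested. With an assumed coefficient of variation of 0.1 it was 5, beside 3385 of the 9338. With 0.2 it was 3, beside 2494 of the 9338. The most abundant, AN0933, had 12745 and 12400 reads in the deletion strain and 67140 and 62740 in the parental strain. Its mean was 14020 normalised reads in the deletion strain and 58163 in the parental strain, a 4.15-fold fall in the authors' deposited table (q listed as 0) that exceeds that of AN11152. AN3053 fell 2.90-fold in the authors' deposited table (q = 3.30e-268), to 2759 normalised reads in the deletion strain, against 7987 in the parental strain. AN3914 and AN4515 (utr2 in RefSeq) changed less, with log2 changes of -0.37 and -0.11 in the authors' deposited table. Whether the 7 genes belong to the Gel family was not examined. AN6948 was not called, with 117 normalised reads in the deletion strain and 141 in the parental strain (q = 0.219 in the authors' deposited table). AN10779 and AN7950 stand in the lists above and are not among the 7 genes. AN10779 was not called. RefSeq names AN7950 bgt2 and AN10150, one of the 7, bgt1. AN7950 was higher, with a log2 change of 0.15 in the authors' deposited table and -0.07 under library totals.

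Of the 2 transglucosylase genes, AN10150 had 6730 normalised reads in the deletion strain and 8273 in the parental strain, a log2 change of -0.30 in the authors' deposited table. AN3727 lies beyond AN3728 from fksA, 3030 bases from fksA in the files. It had 85.9 normalised reads in the deletion strain and 181 in the parental strain, a 2.11-fold fall in the authors' deposited table (q = 9.13e-08), while fksA and AN3730 in the same stretch rose. Next to AN11152 lies AN8947, a predicted exo-1,3-beta-glucanase gene, which was near silent in both strains, with 1 and 2 reads in the deletion strain and 8 and 6 in the parental strain.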
